A study of Drosophila melanogaster with 2 samples.

Results

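Tetraspanins are small membrane proteins that cross the membrane 4 times and gather receptors, adhesion molecules and proteases into shared membrane patches. Members of the TspanC8 group carry the protease Kuzbanian, the fly ADAM10, to the cell surface, where it cuts the receptor Notch. Notch signalling keeps fly neuroblasts in a stem cell state, and other tetraspanins act at synapses, cell junctions, endosomes and extracellular vesicles. The family was taken as every gene of the deposited tables whose symbol starts with Tsp followed by a digit, plus late bloomer (lbm), which gave 35 genes of 14210. They were distributed as 20 on 2R, 5 on 2L, 4 on 3L, 3 on 3R and 3 on X, and 18 of those on 2R formed 1 cluster at cytological position 42E.

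RNA came from brains of Drosophila melanogaster larvae late in the third instar, with 1 library per genotype. Eggs of both genotypes were laid over 24 h, and the animals were then held at 25 °C for 5 days. The osa RNAi larvae carried UAS-CD8::GFP and osa RNAi line 7810 of the Vienna collection, and the wild type larvae (strain w1118) carried UAS-CD8::GFP alone. Both transgene sets were driven by worniu-Gal4 with ase-Gal80, which limits expression to type II neuroblast lineages, brain lineages in which intermediate neural progenitors (INPs) stand between the stem cell and its neurons. Sorting kept cells with strong GFP: per the labels, neuroblasts, neuroblast-like revertant cells and INPs in osa RNAi, and neuroblasts, INPs and ganglion mother cells without neurons in wild type. The sources used here do not give how many brains were pooled, and no difference below has a replicate check.

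Levels are FPKM (fragments scaled to transcript length and to the mapped fragments of the library), with the deposited lower and upper bounds. These bounds cover counting error only. Their widths implied 15707014 reads on genes in osa RNAi and 10114559 in wild type. The targeted gene osa, which encodes a subunit of the Brahma chromatin remodelling complex, was at 15.6 FPKM in osa RNAi and 31.3 FPKM in wild type. All 7 neuroblast markers examined were above 0 in both libraries, and their summed level was 592 FPKM in osa RNAi and 449 FPKM in wild type. Of these sums mira alone held 302 FPKM in osa RNAi and 192 FPKM in wild type. The markers did not all go 1 way: ase was at 27.7 FPKM in osa RNAi and 39.4 FPKM in wild type. For dpn and wor the intervals overlapped. Summed neuronal markers (6 genes, all above 0 in both libraries) were at 39.0 FPKM in osa RNAi and 78.2 FPKM in wild type. The INP markers, with 5 of 6 above 0 in osa RNAi and 6 of 6 in wild type, summed to 177 FPKM in osa RNAi and 238 FPKM in wild type, and opa was the marker listed at 0 in osa RNAi. By the 2-fold rule used for all genes here and defined below, 4 INP markers were lower, where 6.79% of all measured genes were. In turn 1 was higher (grh, at 92.2 FPKM in osa RNAi and 33.6 FPKM in wild type), where 7.78% of all measured genes were. The median difference of the INP markers was -1.56. The 7 glial markers summed to 238 FPKM in osa RNAi and 287 FPKM in wild type. Nearly all of this came from Eaat1 (115 FPKM in osa RNAi, 126 in wild type) and nrv2 (120 and 156 FPKM). Of the rest, repo, the defining glial factor, was at 0.709 FPKM in osa RNAi and listed at 0 in wild type. The glial marker gcm was at 1.05 FPKM in osa RNAi and 3.45 FPKM in wild type. The 7 tracheal and epithelial markers summed to 10.7 FPKM in osa RNAi and 19.9 FPKM in wild type, and the 6 haemocyte markers to 0.603 FPKM in osa RNAi and 4.51 FPKM in wild type. In wild type He alone gave 4.29 FPKM, from 20 implied reads at a locus that overlaps another, whereas srp and Pxn were above 0 in osa RNAi alone, at 0.279 and 0.284 FPKM. The 5 muscle and 4 fat body markers summed to under 2 FPKM in each library. The part that a different mix of cells had in the tetraspanin values was not tested. In such bulk libraries, fewer cells of a type and less RNA per cell cannot be told apart.

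A single tetraspanin made up most of the family's transcripts in both genotypes. Tsp42Ee (FBgn0029506, 2R from 2899761 to 2905869) was at 465 FPKM in osa RNAi (deposited interval 455 to 474) and at 421 FPKM in wild type (410 to 433). It held 80.1% of the summed tetraspanin FPKM in osa RNAi and 76.9% in wild type, and was rank 245 of 8314 genes above 0 in osa RNAi and rank 262 of 7772 in wild type. The next gene of the family, Tsp97E, was 14.0 times lower in osa RNAi and 11.1 times lower in wild type. Between genotypes Tsp42Ee was 1.10-fold higher in osa RNAi (95% counting interval of the fold 1.07 to 1.14), so its deposited intervals were apart while the difference was small. The summed level of the whole family was 580 FPKM in osa RNAi and 548 FPKM in wild type. Without Tsp42Ee it was 115 FPKM in osa RNAi and 126 FPKM in wild type.

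**Figure D1:**
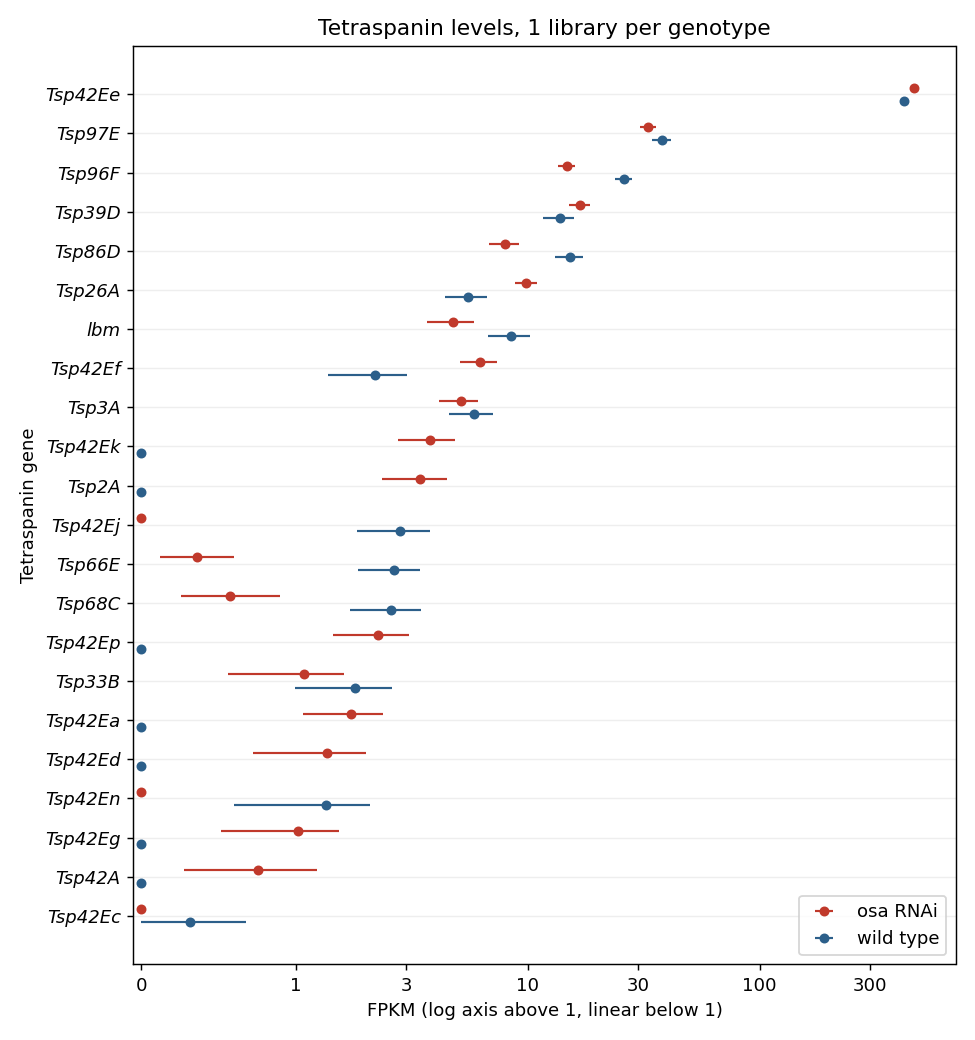
FPKM of the 22 tetraspanin genes above 0 in at least 1 library, with osa RNAi (red) above wild type (blue) in each row; bars are the deposited intervals, and the axis is logarithmic above 1 and linear below. Tsp42Ee stands at 465 FPKM in osa RNAi and 421 FPKM in wild type, with every other member under 40 FPKM, and 10 members are listed at 0 in 1 of the libraries.

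Of the 35 genes, 22 were above 0 in at least 1 library: 12 in both, 7 in osa RNAi alone and 3 in wild type alone. A mean of at least 1 FPKM, counted as measured here, was reached by 16, all with an estimate marked OK. Differences are those of log2(FPKM + 1), taken as osa RNAi minus wild type, and the added 1 makes them too small for low genes. A gene was counted as 2-fold higher or lower when this difference was at least 1 in size and the deposited intervals did not overlap (for a gene listed at 0, the interval is 0 to 0). The targeted gene osa, 2.01-fold lower in osa RNAi without the added 1, had a difference of -0.96 and did not pass. By this rule 4 tetraspanins were higher in osa RNAi, Tsp2A, Tsp42Ef, Tsp42Ek and Tsp42Ep, where 7.78% of all 7144 measured genes were. Another 3, Tsp42Ej, Tsp66E and Tsp68C, were lower, where 6.79% of all measured genes were, and 9 did not pass. The intervals of 12 of the 16 were apart, 6 in each direction, as were those of 65.9% of all measured genes. The median difference of the 16 was -0.17, beside 0.04 over all measured genes.

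In either direction 7 of 16 members passed, and 14.6% of all measured genes. All 7 came from the 8 measured members with a mean of 1 to under 5 FPKM, a level at which 41.5% of all measured genes passed in 1 direction or the other. None of the 8 members with a mean of at least 5 FPKM passed, where 7.74% of all such genes did. The split at 5 FPKM was chosen after the values were seen. Of the 7 genes that passed, 4 were listed at 0 in 1 library, and only Tsp42Ef, Tsp66E and Tsp68C passed with values above 0 in both. A gene at 0 in 1 library reaches the filter only through the other, and its difference then exceeds 1 in size by construction. It passes if the lower bound of that other library is above 0. The 4 calls thus restate the listing at 0 and add nothing to it.

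**Figure D2:**
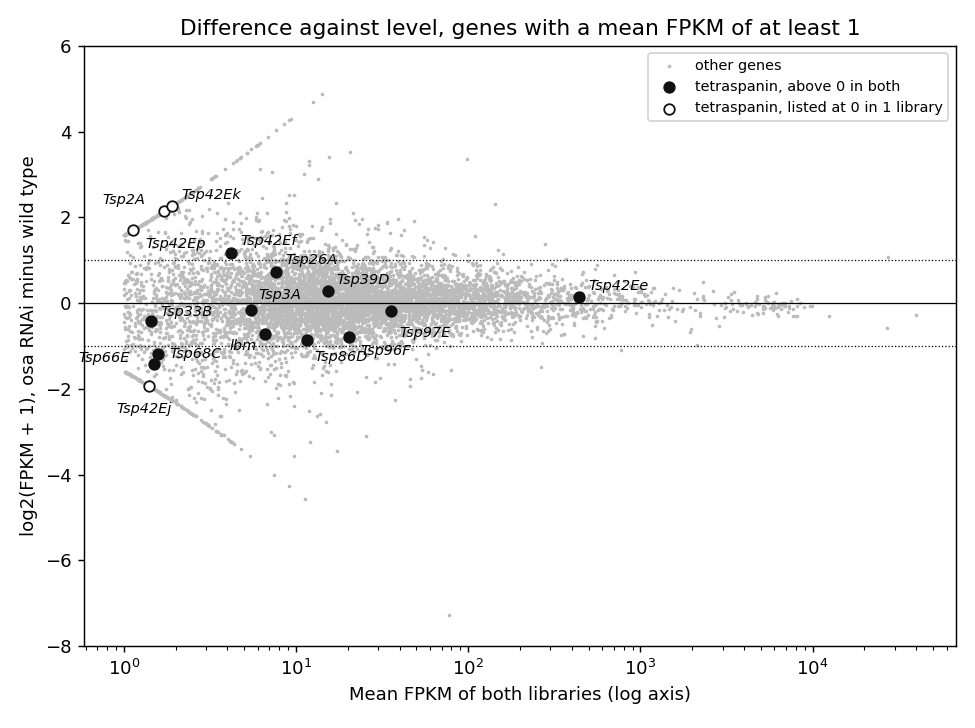
Difference of osa RNAi minus wild type in log2(FPKM + 1) against mean FPKM for 7144 measured genes (grey) and the 16 measured tetraspanins (black; open where 1 library lists the gene at 0); dotted lines mark 2-fold. The tetraspanins past the lines all have a mean under 5 FPKM, and Tsp42Ee, at the right, lies at 0.14.

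The TspanC8 group of the fly consists of Tsp3A, Tsp26A and Tsp86D, whose products act with Kuzbanian in Notch signalling. Tsp26A (FBgn0031760, 2L from 6000205 to 6003741) was at 9.88 FPKM in osa RNAi (8.82 to 10.9) and at 5.53 FPKM in wild type (4.39 to 6.68). It was 1.79-fold higher in osa RNAi (1.42 to 2.24), with the intervals apart. The implied reads were 349 in osa RNAi and 94.0 in wild type, where equal levels would have given 224 in wild type. The fold in reads was thus larger than that in FPKM. Tsp26A has 2 transcripts, and the part of transcript length in this gap was not tested. Tsp86D (FBgn0037848, 3R from 6694435 to 6696277) differed the other way, at 8.005 FPKM in osa RNAi (6.85 to 9.16) and 15.2 FPKM in wild type (13.1 to 17.3). Its level was 1.901-fold lower in osa RNAi (1.56 to 2.31). Tsp3A (FBgn0040334, X from 2511791 to 2513771) was at 5.14 FPKM in osa RNAi and 5.85 FPKM in wild type, with overlapping intervals and a fold, osa RNAi over wild type, of 0.879 (0.663 to 1.17). None of the 3 passed the 2-fold rule, which 14.6% of all measured genes passed in either direction.

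The order of the trio therefore was not the same in the libraries, while its total was close. Tsp26A had 1.23 times the FPKM of Tsp86D in osa RNAi and 0.364 times in wild type, a 3.39-fold difference between these ratios (counting interval 2.51 to 4.59). In osa RNAi the intervals of Tsp26A and Tsp86D overlapped, and in wild type Tsp86D stood apart from Tsp26A. The summed level of the 3 genes was 23.0 FPKM in osa RNAi and 26.6 FPKM in wild type. Tsp26A overlaps the gene Gal, which lies on the opposite strand and was at 0.468 FPKM in osa RNAi and 0.0377 FPKM in wild type.

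Gamma-secretase makes the later cut in Notch. Of 10 genes for the protease, Notch, its ligands and gamma-secretase, 9 were measured. None passed the 2-fold rule in either direction, where 14.6% of all measured genes did. The protease gene kuz was at 14.1 FPKM in osa RNAi and 14.8 FPKM in wild type, with overlapping intervals. Its relative Kul, a kuzbanian-like protease gene, had the largest difference in size, -0.98, at 0.415 FPKM in osa RNAi and 1.796 FPKM in wild type. Without the added 1, Kul was 4.33-fold lower in osa RNAi with the intervals apart, so it missed the rule through the added 1. The ligand gene Delta (Dl) was at 22.0 FPKM in osa RNAi and 13.3 FPKM in wild type (0.69). The gamma-secretase genes went both ways, with aph-1 at 74.2 FPKM in osa RNAi and 108.8 FPKM in wild type (-0.55), and nct, whose locus overlaps another, at 45.2 FPKM in osa RNAi and 31.4 FPKM in wild type (0.51). The median difference of the 9 genes was -0.12.

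The 42E cluster spans 73438 bases of 2R, from 2880181 to 2953618, and holds 18 tetraspanin genes and 6 others. Apart from Tsp42Ee, every cluster member was under 10 FPKM in both libraries, and 7 of 18 were listed at 0 in both. The 8 members above 0 in osa RNAi and the 6 in wild type shared 3, namely Tsp42Ee, Tsp42Ef and lbm. Over all genes 7258 were above 0 in both libraries, 1056 in osa RNAi alone and 514 in wild type alone, and genes with few expected reads were often listed at 0. By the 2-fold rule 3 of 6 measured cluster members were higher and 1 was lower, beside 7.78% and 6.79% of all measured genes. All 4 had a mean under 5 FPKM, where 41.5% of genes passed in either direction, and 3 of them were listed at 0 in 1 library. Outside the cluster 1 of 10 measured members was higher (Tsp2A) and 2 were lower.

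The next tetraspanin along the chromosome after Tsp42Ee is Tsp42Ef (FBgn0033127, 2R from 2912517 to 2915587). Its level was 6.23 FPKM in osa RNAi (5.13 to 7.34), from 127 implied reads, and 2.19 FPKM in wild type (1.38 to 3.003), from 29.0. That is 2.85-fold higher in osa RNAi (1.902 to 4.26), with a difference of 1.18. It is the member past the higher threshold that is above 0 in both libraries, and its locus overlaps no other gene of the tables. On the other side of Tsp42Ee, 401 bases away on the minus strand, Tsp42Ed was at 1.36 FPKM in osa RNAi and listed at 0 in wild type.

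lbm (FBgn0016032, 2R from 2937301 to 2939470) encodes a tetraspanin of motor axons that helps synapses form on embryonic muscle. It stood at 4.77 FPKM in osa RNAi (3.67 to 5.86) and at 8.49 FPKM in wild type (6.74 to 10.2), 1.78-fold lower in osa RNAi (1.32 to 2.41). The intervals were apart, but the difference of -0.72 did not pass the rule. Among the neuronal markers in the same libraries, nerfin-1 was at 3.24 FPKM in osa RNAi and 24.3 FPKM in wild type, and elav at 30.5 FPKM in osa RNAi and 41.3 FPKM in wild type. Syt1 of the same list went the other way, at 1.63 FPKM in osa RNAi and 0.578 FPKM in wild type. The part of neuronal cells in the lbm value was not tested.

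Tsp42Ej and Tsp42Ek, which adjoin in the cluster, stood in opposite directions. Tsp42Ej, also known as sunglasses, encodes a lysosomal tetraspanin needed for rhodopsin turnover in the eye. It was listed at 0 in osa RNAi and was at 2.81 FPKM in wild type (1.83 to 3.79), from 33.0 implied reads. Tsp42Ek was at 3.80 FPKM in osa RNAi (2.77 to 4.84), from 54.0 implied reads, and listed at 0 in wild type. Their loci overlap by 107 bases on the same strand, so their separate values are uncertain. Taken as 1 locus, the pair had 54.0 implied reads in osa RNAi and 33.0 in wild type, a ratio of 1.64 (counting interval 1.06 to 2.52), where the library totals had a ratio of 1.55.

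Tsp42Ep was at 2.25 FPKM in osa RNAi (1.44 to 3.06) and listed at 0 in wild type. It overlaps Tsp42Eo by 174 bases, which lies on the opposite strand and was listed at 0 in both libraries. The low cluster members were Tsp42Ea at 1.73 FPKM and Tsp42Eg at 1.03 FPKM in osa RNAi, both listed at 0 in wild type. In turn Tsp42En at 1.35 FPKM and Tsp42Ec at 0.314 FPKM in wild type were listed at 0 in osa RNAi. The locus of Tsp42Ea covers CG30159 on the same strand, at 62.1 FPKM in osa RNAi and 61.2 FPKM in wild type.

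**Figure D3:**
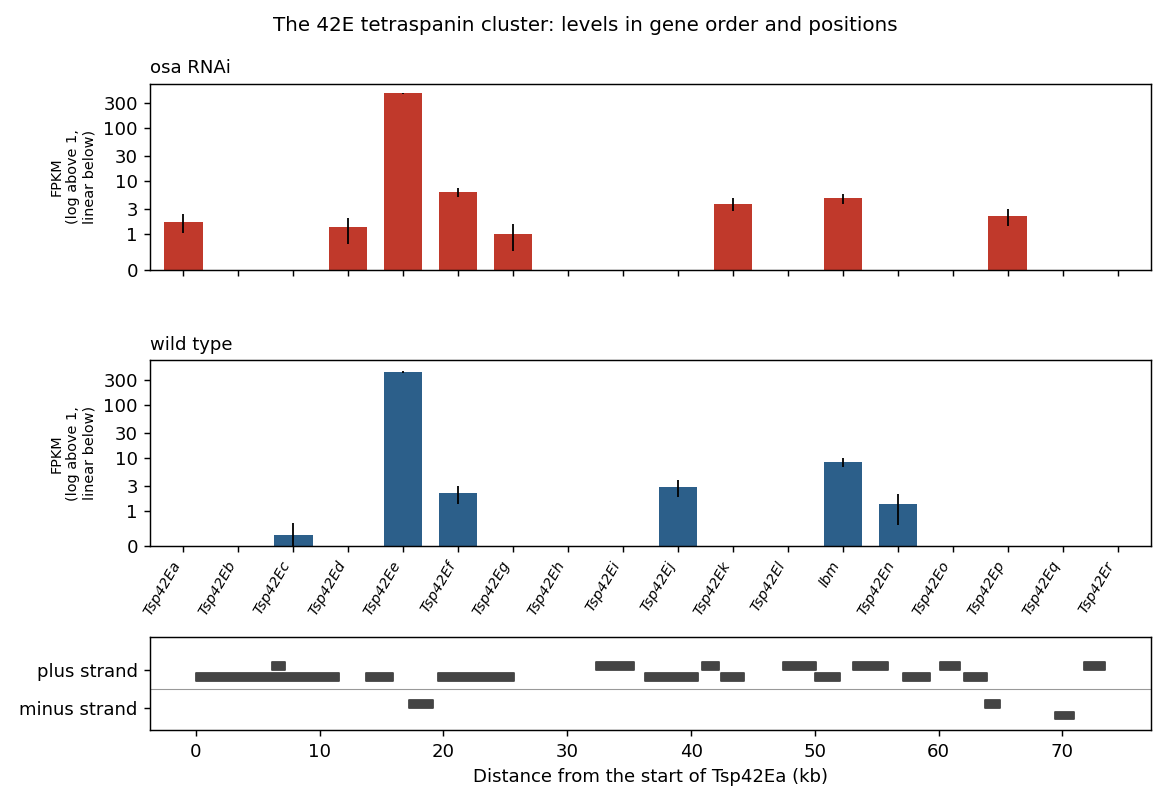
FPKM of the 18 tetraspanin genes of the 42E cluster in chromosome order in osa RNAi (top) and wild type (middle), with deposited intervals on an axis that is logarithmic above 1 and linear below, and their extents by strand (bottom, kb from the start of Tsp42Ea). Tsp42Ee is the tall bar in both panels, and Tsp42Ej and Tsp42Ek are each present in 1 panel.

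Outside the cluster, Tsp97E, Tsp96F and Tsp39D had the highest means over both libraries. Tsp97E (FBgn0039465, 3R from 22787446 to 22790547) was at 33.2 FPKM in osa RNAi (30.5 to 35.8) and 37.9 FPKM in wild type (34.3 to 41.5), with overlapping intervals. Tsp96F (FBgn0027865, 3R from 21698564 to 21707162), whose product has been used in flies as a tagged marker of extracellular vesicles, was at 14.7 FPKM in osa RNAi (13.5 to 16.0) and 26.0 FPKM in wild type (23.8 to 28.3). It was 1.77-fold lower in osa RNAi (1.57 to 1.99), and its difference of -0.78 did not pass the rule. The implied reads were 592 in osa RNAi and 529 in wild type, where equal levels would have given 381 in wild type. For Tsp96F, with 3 transcripts, the fold in reads was thus smaller than that in FPKM. Tsp39D (FBgn0032943, 2L from 21344603 to 21358273) was at 16.9 FPKM in osa RNAi (15.1 to 18.6) and 13.7 FPKM in wild type (11.6 to 15.9), with overlapping intervals.

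The ranking below Tsp42Ee and Tsp97E differed between genotypes. In osa RNAi the next were Tsp39D and Tsp96F, whose intervals overlapped, and then Tsp26A, Tsp86D, Tsp42Ef, Tsp3A and lbm, each overlapping its neighbour in the order. In wild type Tsp96F came after Tsp97E and stood apart from Tsp86D, which overlapped Tsp39D. These were followed by lbm, Tsp3A and Tsp26A, which overlapped in turn, and every other member lay below 3 FPKM.

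Among the rare members, the lower calls with values in both libraries were on 3L. Tsp66E (FBgn0035936, 3L from 8905599 to 8925165) was at 0.359 FPKM in osa RNAi (0.119 to 0.599) and 2.65 FPKM in wild type (1.86 to 3.44), 7.38-fold lower in osa RNAi (3.60 to 15.1). The counts behind it were 8.95 implied reads in osa RNAi and 45.0 in wild type. Its locus overlaps that of mfr, listed at 0 in both libraries, by 173 bases. Tsp68C (FBgn0043550, 3L from 13836756 to 13838416) was at 0.577 FPKM in osa RNAi (0.257 to 0.897) and 2.59 FPKM in wild type (1.71 to 3.46), from 13.0 implied reads in osa RNAi and 35.0 in wild type. That is 4.48-fold lower in osa RNAi (2.37 to 8.47). Tsp33B was at 1.09 FPKM in osa RNAi and 1.795 FPKM in wild type with overlapping intervals, and Tsp42A was at 0.756 FPKM in osa RNAi and listed at 0 in wild type.

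Tsp2A (FBgn0024361, X from 1240584 to 1242176) encodes a component of the smooth septate junctions of gut epithelium. It was at 3.43 FPKM in osa RNAi (2.36 to 4.496), from 41.4 implied reads, and listed at 0 in wild type. All 1593 bases of its locus lie within CG11418 on the opposite strand, which was at 7.03 FPKM in osa RNAi and 5.16 FPKM in wild type. The sources used here do not say if counting used strand, so the values of both genes are uncertain. Taken as 1 locus, the pair had 306 implied reads in osa RNAi and 102 in wild type. That is a ratio of 2.99 (counting interval 2.39 to 3.74), where the library totals had a ratio of 1.55. Most reads of the pair were assigned to CG11418 in both libraries, so the ratio mainly reflects CG11418. The summed level of the pair was 10.5 FPKM in osa RNAi and 5.16 FPKM in wild type. Of the septate junction genes looked for, ssk and mesh were not found under these symbols. The 5 found were pck, cora, Nrx-IV, Nrg and vari, and whether they act with Tsp2A was not tested. All 5 were measured, none was higher by the 2-fold rule and 1 was lower (7.78% and 6.79% of all measured genes). This was vari, a scaffold protein gene whose locus overlaps another, at 0.147 FPKM in osa RNAi and 2.28 FPKM in wild type.

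Values of 0 were common among all genes at these levels. For each of the 10 members listed at 0 in 1 library, equal levels would have given between 4.66 reads (Tsp42Ec) and 51.2 reads (Tsp42Ej) there. Among all genes with as many expected reads, 24.9% were listed at 0 for Tsp42Ej, 35.3% for Tsp42Ek and Tsp2A, 40.3% for Tsp42En and 43.0% for Tsp42Ec. For Tsp42Ea, Tsp42Ed, Tsp42Eg and Tsp42Ep this share was 59.7%, and for Tsp42A it was 62.1%. From 160 expected reads upwards under 1% of all genes were listed at 0. Genes above 0 in 1 library alone were a larger part of the family than of all genes: 20% against 7.43% for osa RNAi alone, and 8.57% against 3.62% for wild type alone. These shares were not matched for expected reads, so they do not set the family apart from other genes of its level.

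**Figure D4:**
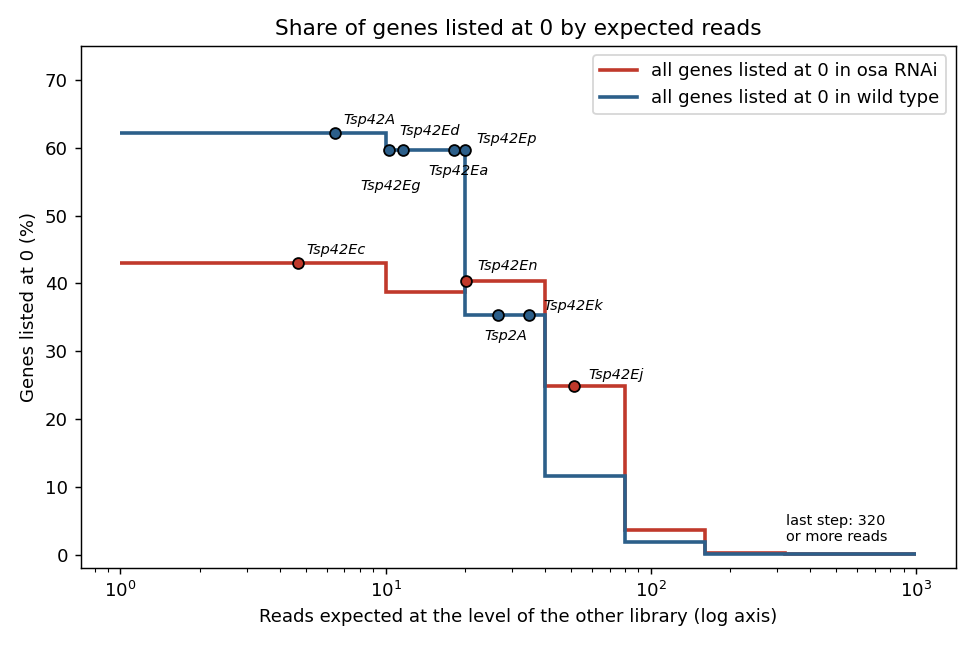
Share of all genes listed at 0 in osa RNAi (red) and in wild type (blue) by the reads expected if the level equalled that of the other library (log axis), with the 10 tetraspanins listed at 0 in 1 library placed on the line of that library. All 10 lie at expected reads where 24.9% to 62.1% of genes were listed at 0.

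The 13 tetraspanins not listed above 0 in either library were Tsp5D, Tsp29Fa, Tsp29Fb, Tsp42Eb, Tsp42Eh, Tsp42Ei, Tsp42El, Tsp42Eo, Tsp42Eq, Tsp42Er, Tsp47F, Tsp66A and Tsp74F. They are 37.1% of the family, beside 37.9% of all genes. The cluster contributed 7 of the 13, and the adjacent genes Tsp29Fa and Tsp29Fb on 2L were both among them. All 996 bases of the Tsp42Eb locus lie within Tsp42Ea on the same strand, so its separate value is uncertain. The loci of Tsp42Ei, Tsp42Eo and Tsp5D also overlap other genes. All 13 mitochondrial genes were also listed at 0 in both libraries, so the listing does not show that a transcript was absent.

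Partners that tetraspanins gather at the membrane or meet in endosomes were examined from lists. Of 9 integrin and integrin linker genes, 4 were measured, none was higher by the 2-fold rule and 1 was lower (7.78% and 6.79% of all measured genes). This was if, which encodes an integrin alpha subunit, at 0.763 FPKM in osa RNAi and 2.60 FPKM in wild type. The beta subunit gene mys was at 11.8 FPKM in osa RNAi and 12.002 FPKM in wild type, with overlapping intervals. All 15 endosome and vesicle genes were measured and none passed in either direction, where 14.6% of all measured genes did. Their median difference was -0.13. The largest differences in size were Vps28 (-0.77) and shrb (-0.41), which encode ESCRT proteins of endosome sorting, and the small GTPase gene Rab35 (-0.68) and Vps25 (-0.39). For Vps28 the values were 60.6 FPKM in osa RNAi and 103.7 FPKM in wild type. TM4SF, a tetraspanin whose symbol falls outside the rule, was at 2.12 FPKM in osa RNAi and 1.403 FPKM in wild type, with overlapping intervals. None of the 15 genes in the authors' deposited table of calls was a tetraspanin of these 35.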

How the data were processed

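Per the file headers, each library has a deposited table of FPKM with bounds and a status for each gene. Cufflinks 1.3.0, TopHat 1.4.1, DESeq 1.8.3, BWA 0.6.1 and HTSeq are named in the submitters' processing notes, without roles. The sources used here do not give the genome build, the annotation or any use of strand in counting. Starts were read as counted from 0 and are printed from 1, since 586 of 1158 genes on 2L with the same end in the BDGP6 annotation were off by 1. Strands come from that annotation by gene identifier, and all 35 identifiers matched the names table. The authors' deposited table of DESeq adjusted p-values (false discovery rate 0.01) was used only to look for members.

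Implied reads are (2 × FPKM / (upper bound - FPKM)) squared; they were whole within 0.02 for 93.4% of 1018 genes in osa RNAi and 92.8% of 846 in wild type with 1 transcript and under 50 reads. Fold intervals (95%) use these reads and cover counting error of PCR products without molecular identifiers. They leave out any error in the transcript lengths used for genes with more than 1 transcript. No test was possible with 1 library per genotype. The pseudocount was 1, the filter a mean FPKM of 1. Values came from Python 3.11.15 with pandas 2.3.3, and simulated data were used to check the 2-fold rule. Named genes were all members, osa, the partner genes past the rule, and otherwise up to 4 per list with the largest differences; further partners, markers and overlapping genes were chosen after their values were seen. The name sun of the partner list was left out because the files give it to another gene. Members and lists were chosen with earlier results of these data known.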

Additional observations from a re-analysis of the deposited data

How the results depend on the processing

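The counts of 4 higher and 3 lower tetraspanins rest on genes whose mean over both libraries is under 5 FPKM. With a pseudocount of 5 they were 0 higher and 0 lower, where 2.16% (154) and 1.53% of all genes were. With a mean FPKM of at least 5 they were 0 higher and 0 lower among 8 members, where 4.58% (261) and 3.16% of all such genes were. Without genes whose locus overlaps another, 1 of 10 was higher (Tsp42Ef) and 1 was lower (Tsp68C), beside 7.17% and 6.61% of all genes. Without genes listed at 0, 1 of 12 was higher (Tsp42Ef) and 2 were lower, beside 5.43% and 5.05% of all genes. With no filter on low values 7 of 22 were higher and 4 were lower, beside 8.59% and 7.25% of all genes. At 1.5-fold 5 of 16 were higher and 6 were lower, beside 17.1% and 14.3% of all genes. The added higher gene was Tsp26A, and the added lower genes were Tsp86D, Tsp96F and lbm. At 3-fold 3 were higher and 1 was lower (Tsp42Ej), beside 4% and 3.44% of all genes. A pseudocount of 0.1, both rescalings, genes of any status and no requirement on intervals gave the same 4 and 3 genes. The median difference stayed below 0 in every setting tried, between -0.30 and -0.01, and that of all genes between 0.01 and 0.07. Its sign was not shared across the family. In the main setting the median was 0.66 over the 6 measured members of the 42E cluster and -0.30 over the 10 outside it. No paired analysis was possible because each genotype has 1 library and no value comes from a test. Below 80 expected reads, 24.9% to 43.0% of all genes were listed at 0 in osa RNAi and 11.7% to 62.1% in wild type, by range of expected reads; the cause was not tested.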

Other observations

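Within the 42E cluster 6 genes are not tetraspanins. CG43646, beside Tsp42Ee, was at 4.71 FPKM in osa RNAi and listed at 0 in wild type, from 24.0 implied reads. Its neighbour CG43647 was listed at 0 in osa RNAi and at 6.21 FPKM in wild type, from 16.0 implied reads. Both passed the 2-fold rule, in opposite directions, and their loci do not overlap each other. The glycosyltransferase gene pgant3, between Tsp42Ep and Tsp42Eq, was at 5.93 FPKM in osa RNAi and 7.72 FPKM in wild type and did not pass, and CG30160 and CG33914 were listed at 0 in both libraries.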
